A study of Homo sapiens with 22 samples.

Results

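SK-N-AS cells at day 30 of the second treatment stage (S2D30, 4 libraries) were compared with the same line at day 4 of that stage (S2D4, 4 libraries) across all genes, so 8 of the 22 libraries of the series were the members of this comparison. The labels put each library in its group. SK-N-AS is an established human neuroblastoma cell line, grown from a childhood tumour of the sympathetic nervous system, and the labels class it as mesenchymal. Both groups had first received stage 1, which was 4 days of 5 µM PP121 in medium with 1% fetal bovine serum (the group S1D4), and then 5 µM PP121 with 100 nM bufalin in Neurobasal medium with B27 supplement and 0.25X Glutamax. They differ in the labels only by the days of stage 2, which were 4 or 30. The untreated cells of the line were kept in 10% serum without drugs. There was no group kept for 30 days without drugs, so time in culture and time under the drugs cannot be told apart. Nothing in the labels says that the 4 libraries of a group came from separate cultures, so the p-values below measure only the spread between these libraries.

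PP121 blocks both protein tyrosine kinases and kinases of the phosphoinositide 3-kinase family, together with the related protein kinase mTOR. Bufalin is a steroid of toad venom that blocks the sodium-potassium pump. Sympathetic neuroblasts and their tumours are defined by an adrenergic programme, with transcription factors such as HAND2 and GATA3 and the enzymes that make noradrenaline, and many neuroblastoma lines can instead take on a mesenchymal state. Cells that leave the cell cycle lose the transcripts for copying and dividing chromosomes, whose promoters are switched by E2F, B-MYB and DREAM complexes, while stressed or arrested cells can secrete chemokines, interleukins and matrix proteases under control of the factor NF-kappa-B.

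Total counts ran from 18793711 to 34292076 in S2D4 and from 19956878 to 22783860 in S2D30. Expression is given in CPM, the counts of a gene scaled by the library's total over tested genes, adjusted by TMM, a scaling between libraries. Values are the mean ± SD of 4 libraries unless said otherwise. One library stood apart before any test: replicate 4 of S2D4 correlated with the other S2D4 libraries at 0.963 to 0.965 over log2 CPM, while those 3 correlated with each other at 0.990 when rounded. It lay closer to S1D4 (0.931 to 0.938) than the other 3 did (0.918 to 0.926) and farther from S2D30 (0.904 to 0.906 against 0.927 to 0.932). It was kept as labelled, and where leaving it out changed the call of a named gene, or moved a called value or the count of a list by over 1.5 times, the result is also given without it. The 4 S2D30 libraries fell into 2 closer pairs, replicates 1 with 4 and 2 with 3. In the check of cell type, all 8 adrenergic markers were lower at day 30 (their summed CPM was 587 to 886 at day 4 and 184 to 234 at day 30), while the 8 mesenchymal markers summed to 2602 to 4940 and 3191 to 3927. Of markers of other cell types, the leukocyte sum was 107 to 165 at day 4 and 109 to 161 at day 30 with CD3E at 0 in all 8 libraries, the epithelial sum was 109 to 204 and 120 to 129 with KRT5 and KRT14 at 0, and the melanocyte sum was 10.2 to 12.7 and 12.3 to 12.7. Schwann and glial markers summed to 7.62 to 38.5 and 5.93 to 7.67, endothelial markers to 17.2 to 22.3 and 5.19 to 7.54, and muscle markers to 2.6 to 4.19 and 2.06 to 2.83. Their part in the results was not tested. In bulk RNA, fewer cells of a kind and less RNA per cell cannot be told apart.

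The 2 times differed in a large part of the transcriptome. Of 15810 genes tested with edgeR's quasi-likelihood test, 3863 were higher at day 30 (24.4%) and 4248 were lower (26.9%) at an adjusted p under 0.05, together 8111 genes (51.3%). With a change of at least 1 on the log2 scale, 1603 rose (10.1%) and 1506 fell (9.53%). In 7955 genes (50.3%) the 4 libraries of one group all lay above the 4 of the other. The median log2 fold change over all genes was -0.018. Without replicate 4 of S2D4, 4268 genes were higher and 4376 lower, and 7468 of the 8111 calls were kept. Medians of several lists near 0 moved by over 1.5 times without that library: unfolded protein and stress from 0.062 to 0.15, AP-1 from -0.25 to -0.15, the BCL2 family from 0.070 to 0.15, nuclear-encoded respiratory genes from 0.0046 to -0.058, mitochondrial-encoded ones from -0.12 to -0.011, and glycolysis from -0.060 to 0.018. Gene groups are read against the shares of all genes: 35 lists with 771 genes, of which 735 were tested.

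**Figure D1:**
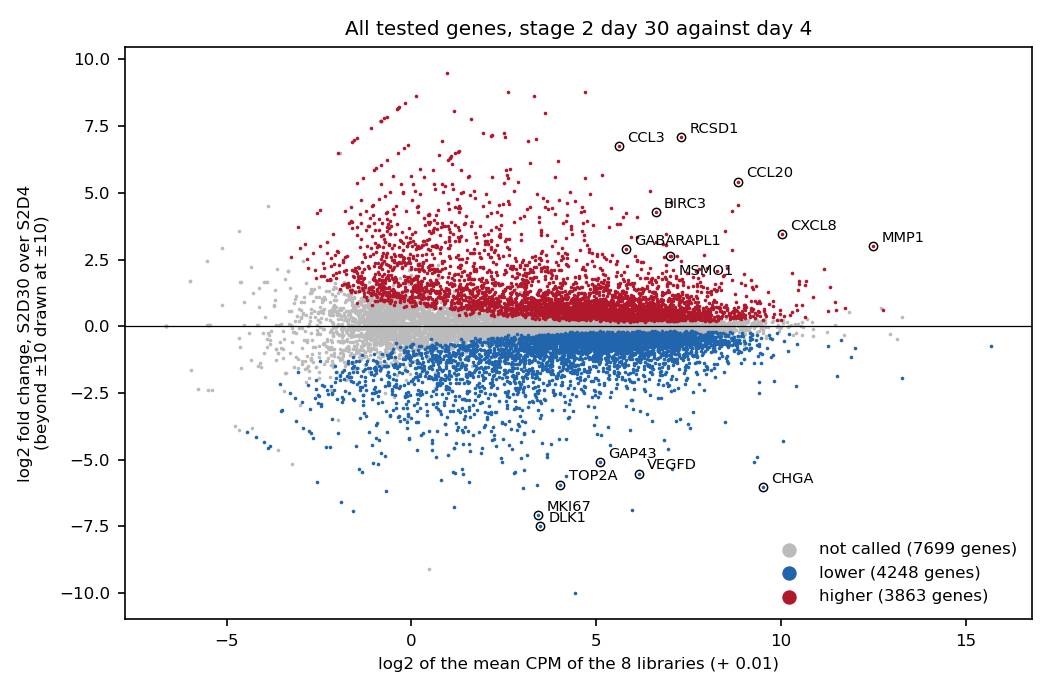
Log2 fold change of day 30 over day 4 (y axis) against the log2 of the mean CPM of the 8 libraries (x axis) for the 15810 tested genes, with the 3863 genes called higher in red, the 4248 called lower in blue and the rest in grey. Circles mark 14 genes described in the text, of which CCL20, CXCL8 and MMP1 rose and MKI67, DLK1 and CHGA fell, the gene RP11-466H18.1 being drawn at the lower limit of the axis.

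**Figure D2:**
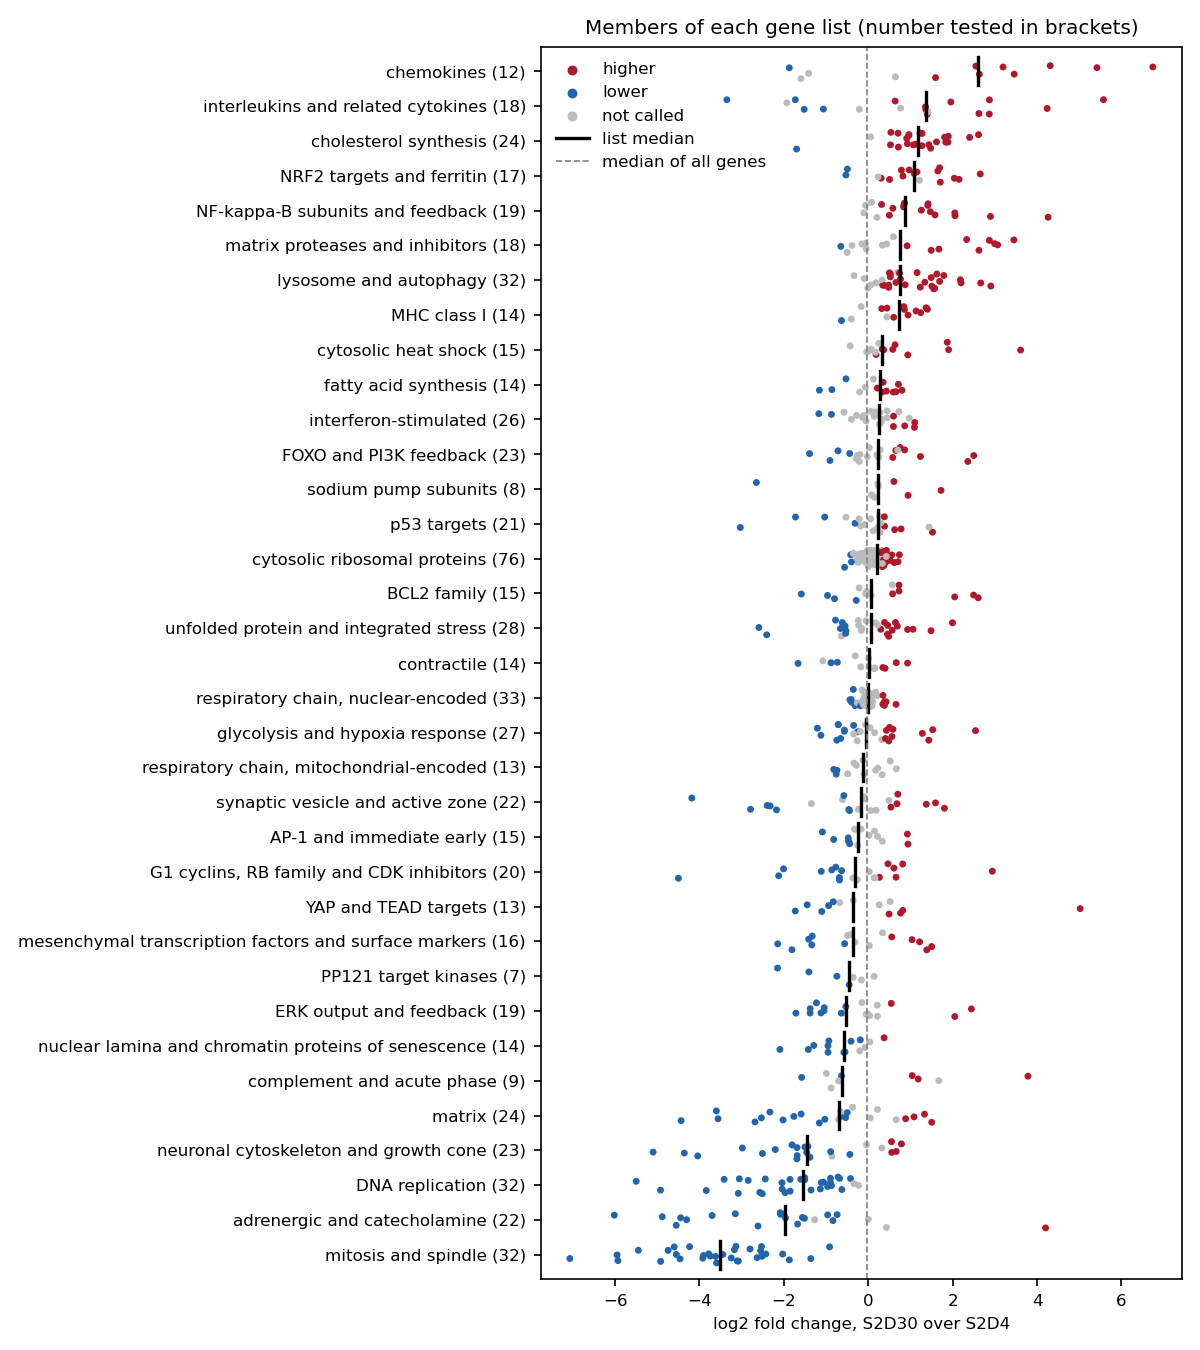
Each point is a tested member of a gene list, placed by its log2 fold change of day 30 over day 4 (x axis), with the lists ordered by their median (black bar) and the median of all genes as a dashed line. The mitosis and spindle list had the lowest median, -3.52, with all 32 members called lower, and the chemokines had the highest, 2.59.

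The deepest coordinated fall was in the cell cycle. All 32 genes of mitosis and the spindle were lower at day 30, with a median log2 fold change of -3.52, and 30 of 32 DNA replication genes were lower with a median of -1.55, beside 26.9% of all genes lower and the overall median of -0.018. The same 32 and 30 were counted without replicate 4 of S2D4. MKI67, which encodes the Ki-67 protein of cycling cells, stood at 19.4, 17.3, 23.5 and 25 CPM at day 4 and at 0.453, 0.106, 0 and 0.0449 at day 30. It had been 212 CPM in untreated cells and 54.3 in S1D4, so it was already low at day 4, and the 2 stage 2 groups did not overlap (log2 fold change -7.07 ± 0.59 SE, adjusted p = 5.76e-08, edgeR). TOP2A, the topoisomerase that untangles chromosomes, fell from 30.5, 29.8, 30.6 and 37.5 CPM to 0.589, 0.635, 0.56 and 0.314. Its change was -5.93 ± 0.27 (adjusted p = 9.02e-11, edgeR). MYBL2, which encodes B-MYB, fell from 20.7 ± 10.3 to 0.331 ± 0.134 CPM. CCNB1, the cyclin that drives entry into mitosis, fell from 18.4 ± 4.35 to 3.21 ± 0.929 CPM.

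Replication genes fell by unequal amounts. MCM10, which helps to fire replication origins, stood at 12.0, 10.7, 10.5 and 20.7 CPM at day 4 and at 0.408, 0.0529, 0.234 and 0.449 at day 30 (log2 fold change -5.50 ± 0.34). MCM2, a subunit of the replicative helicase, fell less, from 117 ± 23.5 to 38.7 ± 0.0309 CPM (-1.60 ± 0.11), with 23.6% of its exon bases overlapped by a gene on the other strand. RRM2, the ribonucleotide reductase subunit that supplies DNA building blocks, fell from 17.0 ± 9.93 to 2.38 ± 0.174 CPM, and 19% of its 75-base words occur elsewhere in the transcripts. POLA2 and ORC6 were the 2 replication genes that were not called, at -0.34 and -0.23.

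Promoters of the mitotic genes shared short sequence words, which are shown because these genes moved together. RefSeq promoters (GRCh38.p14, 250 bases before to 50 after the gene start) were at hand for 26 of the 32 genes. The word TTTGAA of the cell cycle homology region, searched on both strands, was in 18 of 26 (69.2%) and in 9.95% of the 11241 promoters of tested genes. CCAAT, also on both strands, was in 19 of 26 (73.1%) against 36.2%. Both were in 14 of 26 (53.8%) against 4.07%, and in 1 of these promoters a pair of the words overlapped. A match is only a match of letters. TOP2A and MKI67 are printed, chosen after their values were seen, with matches to either word in capitals, from chr17:40417847-40418146 and chr10:128126374-128126673, both on the minus strand.
TOP2A: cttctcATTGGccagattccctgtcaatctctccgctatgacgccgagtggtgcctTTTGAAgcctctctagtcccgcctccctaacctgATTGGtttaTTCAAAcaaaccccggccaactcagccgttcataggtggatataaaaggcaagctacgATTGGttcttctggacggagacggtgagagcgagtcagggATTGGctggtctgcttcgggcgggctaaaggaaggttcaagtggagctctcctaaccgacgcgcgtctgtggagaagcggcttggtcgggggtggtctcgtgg
MKI67: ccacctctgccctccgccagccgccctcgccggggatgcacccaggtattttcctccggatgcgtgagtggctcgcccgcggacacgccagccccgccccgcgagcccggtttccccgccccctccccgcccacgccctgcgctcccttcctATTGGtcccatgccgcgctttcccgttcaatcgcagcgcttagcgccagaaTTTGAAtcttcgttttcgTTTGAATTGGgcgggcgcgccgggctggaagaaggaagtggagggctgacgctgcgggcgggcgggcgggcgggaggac

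Regulators of the G1 phase did not move as 1 group. Of 20 genes, 6 were higher (30%) and 9 lower (45%), beside 24.4% and 26.9% of all genes, with a median of -0.31. E2F2, an E2F factor that activates S-phase genes, fell from 8.34, 8.35, 7.42 and 13.5 CPM to 0.498, 0.318, 0.56 and 0.269 (log2 fold change -4.50 ± 0.26). CDKN1A, the p21 inhibitor of cyclin-dependent kinases, was lower at day 30 than at day 4. Its libraries stood at 522, 558, 557 and 652 CPM at day 4 and at 345, 406, 398 and 332 at day 30 (-0.63 ± 0.12, adjusted p = 2.98e-04, edgeR), while untreated cells had 12.9 CPM, so day 30 remained far above that level. CDKN1C, the p57 inhibitor, rose from 20.3 ± 2.77 to 35.7 ± 2.59 CPM. CCND1, cyclin D1, rose from 634 ± 42.9 to 878 ± 45.5 CPM. CDKN2A and CDKN2B, picked after their values were seen because they encode the p16 and p15 inhibitors, were not called, at 142 ± 12.0 and 157 ± 12.1 CPM for CDKN2A and 137 ± 9.08 and 140 ± 8.78 for CDKN2B.

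Nuclear lamina and chromatin proteins that are lost in senescent cells mostly fell: 10 of 14 were lower (71.4%) and 1, LBR, was higher (7.14%), with a median of -0.56. Of all genes 26.9% were lower and 24.4% higher. LMNB1, lamin B1, stood at 101, 97.0, 99.1 and 108 CPM at day 4 and at 22.7, 23.3, 26.4 and 22.5 at day 30 (log2 fold change -2.09 ± 0.09, adjusted p = 8.39e-11, edgeR). Every day 30 library was below every day 4 library. LBR, the receptor that ties lamin B to the membrane, rose from 57.6 ± 4.26 to 74.8 ± 2.48 CPM.

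The adrenergic programme was lower at day 30. Of 22 genes, 18 fell (81.8%) and 1 rose (4.55%), beside 26.9% and 24.4% of all genes, with a median of -1.98. Without replicate 4 of S2D4, 15 fell and the median was -1.49. That library alone held much of the day 4 signal of several genes. CHGA, the chromogranin of secretory granules, stood at 500, 593, 605 and 4048 CPM at day 4 and at 18.3, 29.7, 27.6 and 13.1 at day 30, so the groups did not overlap with or without it. Its log2 fold change was -6.02 ± 0.70 (adjusted p = 2.42e-06, edgeR), or -4.68 without that library. TH, the rate-limiting enzyme of catecholamine synthesis, stood at 1.25, 0.729, 0.732 and 25.8 CPM at day 4 and at 0.135 to 0.423 at day 30. Its change was -4.55 ± 1.12 with that library and -1.55 without it (adjusted p = 0.0321, edgeR). GATA3 stood at 38.9, 38.6, 36.6 and 103 CPM and then at 30.6, 31.8, 30.1 and 29.9, a change of -0.84 ± 0.25 that shrank to -0.32 without that library and remained called. HAND2 fell from 435 ± 41.7 to 148 ± 19.1 CPM, with 24.1% of its exon bases overlapped on the other strand. The 1 gene that rose was DDC, the decarboxylase that makes dopamine and serotonin, from 0.0728 to 1.35 CPM, singled out after its values were seen.

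Neuronal cytoskeleton and growth cone genes fell in 16 of 23 cases and rose in 4, with a median of -1.46. GAP43, a growth cone protein, stood at 83.5, 90.4, 80.7 and 11.6 CPM at day 4 and at 1.63, 2.17, 2.43 and 1.53 at day 30 (log2 fold change -5.10 ± 0.54, adjusted p = 9.03e-07, edgeR). Untreated cells had 5.03 CPM, so day 4 lay above and day 30 below that level. STMN2, a microtubule regulator of growing axons, fell from 56.5, 53.6, 50.7 and 35.1 CPM to 6.75, 5.08, 6.96 and 5.93 (-2.98 ± 0.25). TUBB3, neuronal beta-tubulin, fell from 165 ± 12.8 to 51.4 ± 10.6 CPM, and 31.3% of its 75-base words occur in other genes. MAP2, a dendritic microtubule protein, fell from 12.2 ± 1.21 to 4.67 ± 0.469 CPM. In the other direction, the intermediate filament genes NEFM (12.0 ± 2.64 to 19.0 ± 1.43 CPM) and PRPH (61.4 ± 15 to 106 ± 19.6 CPM) rose, with 38.9% and 56.2% of their exon bases overlapped on the other strand. UCHL1 and NCAM1 were the other 2 that rose, by 0.55 and 0.56 on the log2 scale.

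Synaptic vesicle genes were split, with 6 higher and 8 lower of 22 tested and a median of -0.17. These were 27.3% and 36.4% of the list, beside 24.4% and 26.9% of all genes. CPLX1, complexin 1 of the release machinery, fell from 11.4, 13, 10.5 and 14.2 CPM to 2.26, 1.64, 2.10 and 1.08 (log2 fold change -2.79 ± 0.24). PCLO, a scaffold of the release site, rose from 9.02, 8.69, 9.61 and 5.97 CPM to 28.8, 22.7, 26.6 and 38 (1.81 ± 0.26). SNAP25, a membrane fusion protein, was not called, at 25.2 ± 5.52 and 26.2 ± 4.27 CPM with overlapping groups.

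**Figure D3:**
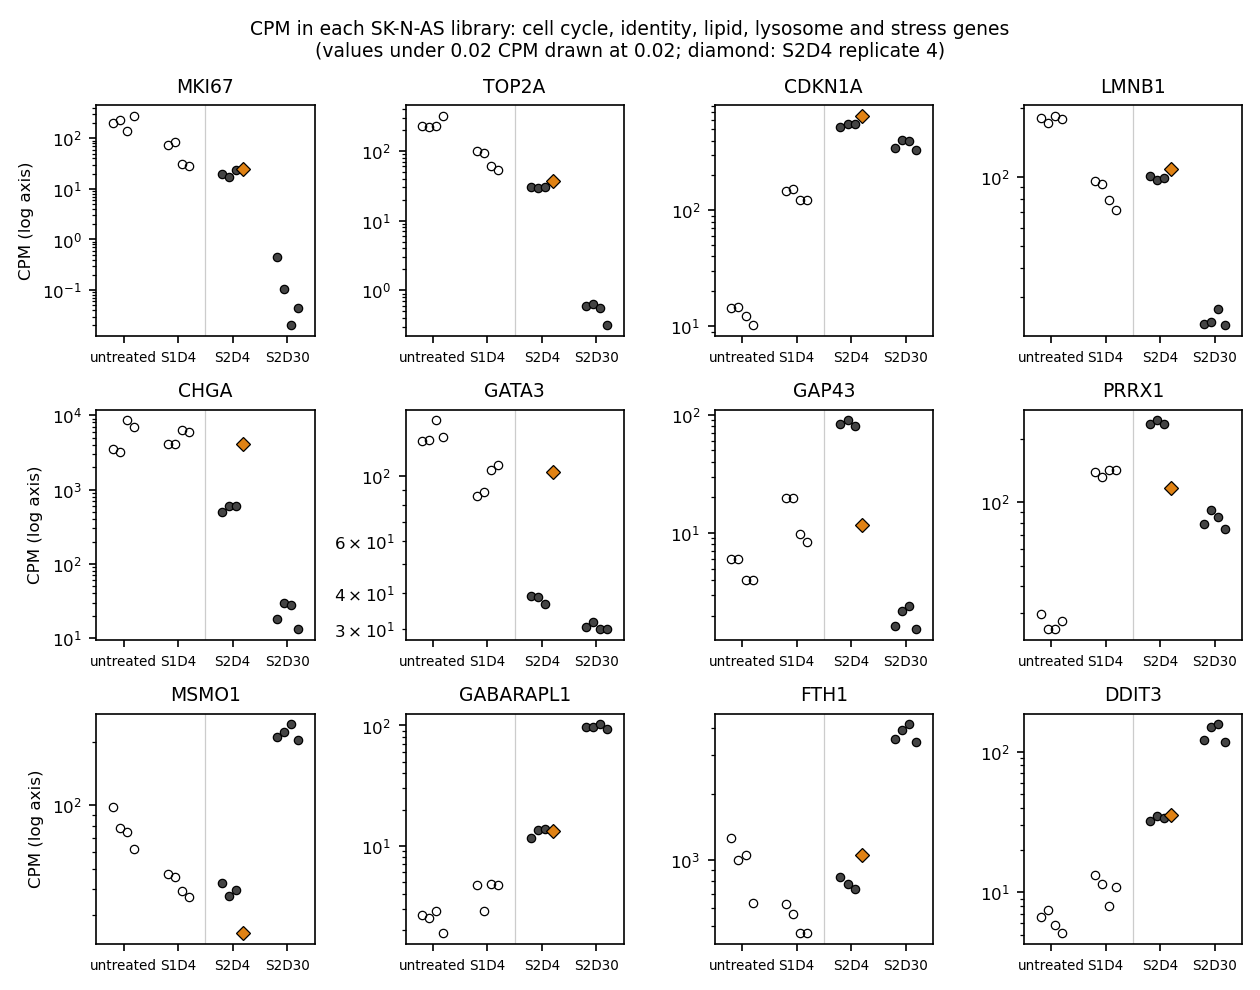
CPM of 12 genes on log axes (y axis) in each of the 16 SK-N-AS libraries by group (x axis), with stage 2 libraries filled and replicate 4 of S2D4 as an orange diamond. For MKI67 the 4 day 30 libraries lie at 0.453 CPM or less, and for CHGA, GATA3, GAP43 and PRRX1 the diamond lies apart from the other day 4 libraries.

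Mesenchymal regulators and surface proteins were also split, with 5 higher (CD44, NT5E, ZEB2, SNAI2 and TWIST1) and 6 lower of 16 and a median of -0.36, or 0.0056 without replicate 4 of S2D4. The shares were 31.25% higher and 37.5% lower, beside 24.4% and 26.9% of all genes. PRRX1, a transcription factor of the mesenchymal state, stood at 235, 245, 236 and 117 CPM at day 4 and at 78.4, 91.3, 85.4 and 74.4 at day 30 (log2 fold change -1.34 ± 0.17). TWIST2, a factor of mesenchymal progenitors, fell from 142 ± 24.8 to 40.7 ± 7.09 CPM. CD44, the hyaluronan receptor, rose from 92.1, 86.1, 81.5 and 43.4 CPM to 201, 238, 230 and 191 (1.51 ± 0.24). So the list held transcription factors that fell, PRRX1 and TWIST2, and others that rose, ZEB2, SNAI2 and TWIST1, beside the surface receptor CD44. The groups did not overlap for PRRX1, TWIST2 or CD44, as in 50.3% of all genes.

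Of 24 matrix genes 14 were lower and 4 higher (LUM, THBS2, COL5A2 and TGFBI), with a median of -0.68. COL3A1, a fibrillar collagen, stood at 661, 716, 750 and 508 CPM at day 4 and at 59.7, 53.2, 49.0 and 55.5 at day 30 (log2 fold change -3.60 ± 0.13, adjusted p = 1.07e-11, edgeR). FN1, fibronectin, fell from 14.5, 13.2, 15.7 and 2.43 CPM to 2.45, 1.48, 1.73 and 2.16, where replicate 4 of S2D4 lay within the day 30 range. LUM, the collagen-binding proteoglycan lumican, rose from 32.9 ± 15.7 to 94.0 ± 20.3 CPM. Of 18 tested proteases and inhibitors 9 were higher, 8 were not called and 1, MMP14, was lower (median 0.76). MMP1, interstitial collagenase, stood at 1774, 1681, 1605 and 60.7 CPM at day 4 and at 9557, 10942, 11358 and 8997 at day 30 (3.0 ± 0.61, adjusted p = 6.09e-04, edgeR). MMP3, stromelysin 1, rose from 31.8, 24.2, 22.3 and 2.03 CPM to 255, 181, 185 and 251 (3.45 ± 0.50). Both proteases were far lower in replicate 4 of S2D4 than in the other day 4 libraries, and both were near or below 1 CPM in untreated cells (0.986 and 0.0896). MMP14, a collagenase held in the cell membrane, stood at 56.9, 66.8, 63.5 and 85.4 CPM and then at 32.7, 56.1, 55.0 and 30.2 (-0.65 ± 0.21).

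Chemokines rose most of all lists by median. Of 12 tested, 8 were higher and 1, CXCL12, lower, with a median of 2.59. CXCL12 was no longer called without replicate 4 of S2D4, and the count higher was again 8. CCL20, which attracts cells bearing CCR6, stood at 26.2, 26.1, 25.3 and 5.67 CPM at day 4 and at 887, 880, 985 and 795 at day 30 (log2 fold change 5.42 ± 0.49, adjusted p = 1.52e-07, edgeR). CXCL8, the neutrophil attractant interleukin-8, rose from 212, 201, 187 and 89.5 CPM to 1827, 1954, 2081 and 1722 (3.46 ± 0.39). CCL3, which attracts monocytes, rose from 1.25, 1.35, 1.27 and 0 CPM to 95.5, 105, 111 and 76.6 (6.75 ± 0.50), with 74.6% of its exon bases overlapped by a gene on the other strand. All 3 chemokines were at 0.258 CPM or less in untreated cells, and the day 4 libraries lay above that level except replicate 4 for CCL3, which was at 0.

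Of 18 tested interleukins and related cytokines 10 were higher and 4 lower (EBI3, IL7, IL12A and IL11), with a median of 1.36. These were 55.6% and 22.2%, beside 24.4% and 26.9% of all genes. IL1RN, the antagonist of the interleukin-1 receptor, stood at 6.65, 7.46, 7.86 and 0.934 CPM at day 4 and at 105, 110, 112 and 97.3 at day 30 (log2 fold change 4.24 ± 0.42). IL6 was barely detected at day 4, with 0.0964, 0.112, 0 and 0 CPM, and stood at 2.31, 2.80, 2.38 and 2.29 at day 30, with 20.7% of its exon bases overlapped on the other strand. IL6 too could pass the filter on low counts through its day 30 level, and then only rise. IL7, a lymphocyte growth factor, fell from 5.46 ± 1.12 to 1.64 ± 0.346 CPM, with 16.3% of its exon bases overlapped on the other strand. Among genes singled out after their values were seen, IL1B rose from 210 ± 123 to 815 ± 131 CPM. LIF, a cytokine of the interleukin-6 family, rose from 791 ± 173 to 2029 ± 500 CPM. IL33, an alarmin, rose from 36.6 ± 9.28 to 225 ± 14.8 CPM. IL24 was not called, at 67.6, 61.6, 61.9 and 8.81 CPM against 81.9, 91.0, 97.9 and 68.6, and it was called without replicate 4 of S2D4 at 0.41 (adjusted p = 0.0383, edgeR).

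NF-kappa-B subunits and feedback genes were higher in 15 of 19 cases and lower in 0, with a median of 0.86. BIRC3, an inhibitor of apoptosis that acts in this pathway, stood at 12.8, 10.3, 10.3 and 5.40 CPM at day 4 and at 209, 171, 168 and 193 at day 30 (log2 fold change 4.27 ± 0.39, adjusted p = 1.66e-07, edgeR). NFKBIA, the inhibitor IkB-alpha, rose from 45.6, 50.9, 48.9 and 97.2 CPM to 189, 177, 188 and 175 (1.58 ± 0.32). The S1D4 mean was 132 CPM and the untreated mean 61.2. TNFAIP3, the enzyme A20 that ends the signal, rose from 20.4 ± 6.23 to 36.6 ± 2.44 CPM.

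Promoters of the chemokine, NF-kappa-B and interleukin lists were searched as well, over listed genes with a promoter at hand, tested or not. The NF-kappa-B site, searched on both strands, was in 8 of 13 chemokine promoters (61.5%), in 7 of 17 of the NF-kappa-B list (41.2%) and in 4 of 14 of the interleukins (28.6%), against 6.63% of the 11241 promoters. Of the 8 chemokines with a match, CXCL6, CXCL10 and CXCL11 did not pass the filter on low counts and the others rose. Of the interleukins with a match, IL12A fell and IL32 was not called. CCL20 and BIRC3, which both rose, are printed as examples with the matches in capitals, from chr2:227813592-227813891 and chr11:102317234-102317533, both on the plus strand. CCL20 held 1 match and BIRC3 held 2.
CCL20: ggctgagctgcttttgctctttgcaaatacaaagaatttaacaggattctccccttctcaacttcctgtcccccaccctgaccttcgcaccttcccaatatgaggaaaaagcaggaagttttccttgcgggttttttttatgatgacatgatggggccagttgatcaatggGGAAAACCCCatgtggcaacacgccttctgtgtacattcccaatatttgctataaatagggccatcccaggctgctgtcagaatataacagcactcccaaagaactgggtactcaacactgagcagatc
BIRC3: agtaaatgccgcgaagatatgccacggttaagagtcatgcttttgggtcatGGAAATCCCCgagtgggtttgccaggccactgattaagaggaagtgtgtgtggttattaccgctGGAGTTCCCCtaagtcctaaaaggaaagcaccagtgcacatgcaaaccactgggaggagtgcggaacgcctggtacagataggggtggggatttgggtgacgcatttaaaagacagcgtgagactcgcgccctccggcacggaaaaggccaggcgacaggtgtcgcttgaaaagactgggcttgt

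**Figure D4:**
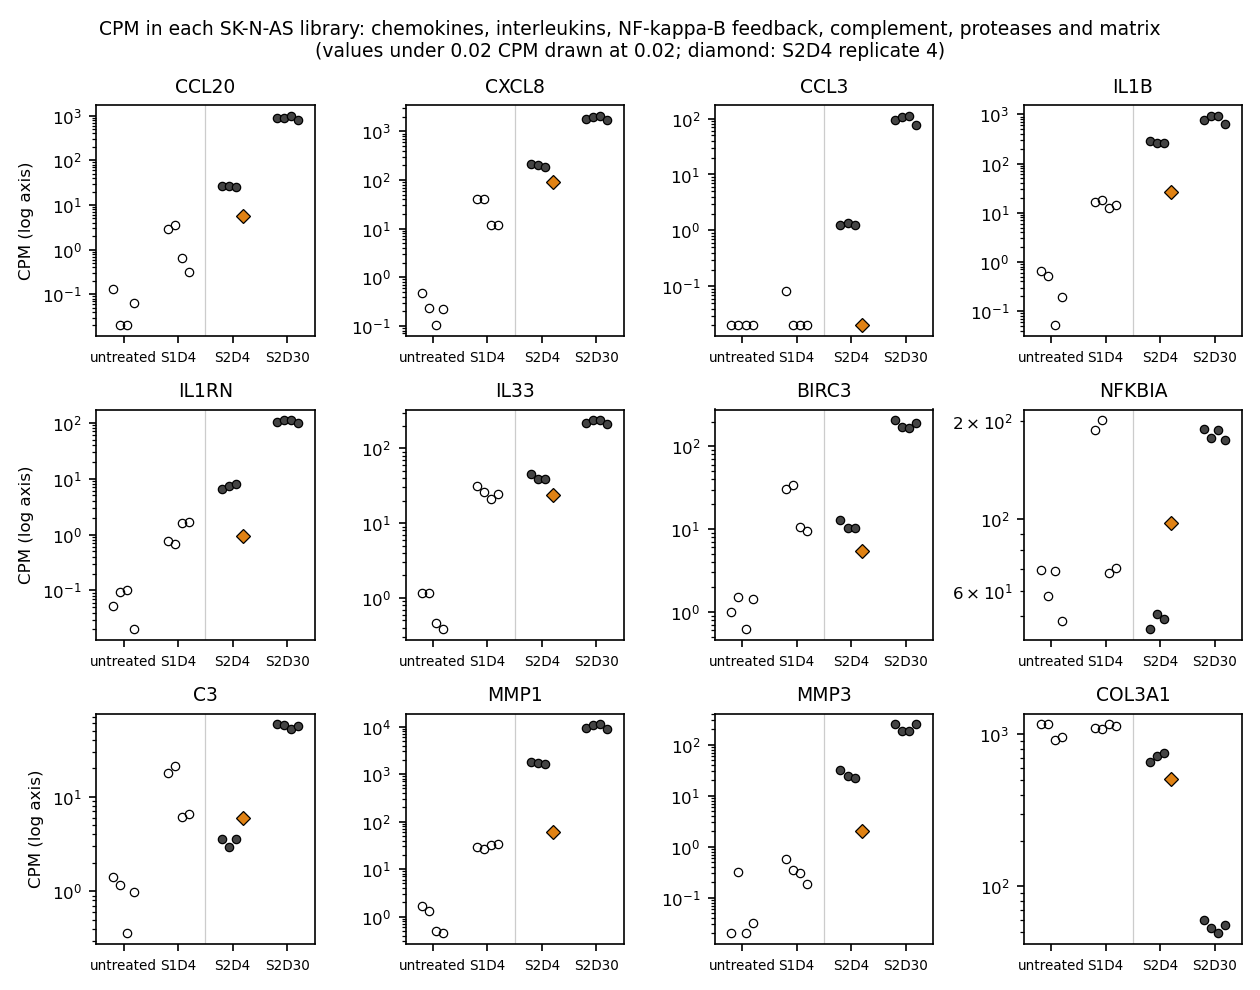
CPM of 12 genes of chemokines, interleukins, NF-kappa-B feedback, complement, proteases and matrix on log axes (y axis) in each of the 16 SK-N-AS libraries by group (x axis), with replicate 4 of S2D4 as an orange diamond. The day 30 libraries lie above all day 4 libraries in each panel except COL3A1, where they lie below.

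Of 14 genes of major histocompatibility complex (MHC) class I and its peptide loading, 10 were higher and 1, TAP2, lower, with a median of 0.72. B2M, the light chain of class I, rose from 403, 396, 390 and 669 CPM to 705, 663, 731 and 727, where replicate 4 of S2D4 overlapped the day 30 libraries. HLA-B rose from 14.9 ± 10.9 to 35.7 ± 7.17 CPM, by 1.24 on the log2 scale, or 1.90 without that library, with 17.8% of its exon bases overlapped on the other strand. TAP2, a subunit of the peptide transporter, fell from 69.5 ± 5.90 to 44.8 ± 2.32 CPM, and 30.8% of its 75-base words occur elsewhere. Of 26 interferon-stimulated genes 5 were higher (IFIH1, IRF1, IFI6, HERC5 and STAT2) and 2 lower (IRF7 and OAS3), with a median of 0.25, and without that library 8 and 4. In the main fit 19 of these genes were not called. The shares were 19.2% higher and 7.69% lower, below the 24.4% and 26.9% of all genes. IFIH1, a sensor of viral RNA, rose from 7.60 ± 1.39 to 16.3 ± 1.31 CPM, while IRF7, a factor that induces interferon, fell from 26.0, 27.4, 26.2 and 75.4 CPM to 14.5, 19.8, 17.8 and 17.0. Its log2 fold change was -1.17, or -0.62 without that library. MX1, an antiviral GTPase, was not called at 4.39 ± 1.11 and 4.04 ± 0.434 CPM. Complement genes were mixed, with 3 higher (C3, CFB and C1S) and 2 lower (CFI and C1R) of 9, and a median of -0.63, or -0.24 without that library. Their shares were 33.3% and 22.2%, beside 24.4% and 26.9% of all genes. C3, the central component, rose from 4.03 ± 1.29 to 56.4 ± 3.27 CPM (3.79 ± 0.38), and CFI, a protease that degrades it, fell from 157 ± 30.7 to 52.6 ± 4.41 CPM, with 29.4% of its 75-base words found elsewhere. Fewer complement genes, 1 in place of 2, were lower without that library.

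Cholesterol synthesis rose almost as a whole. Of 24 tested genes 22 were higher, 1 was lower and 1 was not called, with a median of 1.17, and the counts were the same without replicate 4 of S2D4. MSMO1, the sterol methyl oxidase, stood at 42.8, 37.2, 39.6 and 24.6 CPM at day 4 and at 212, 223, 243 and 204 at day 30 (log2 fold change 2.62 ± 0.17, adjusted p = 2.68e-09, edgeR). INSIG1, the sterol sensor partner that holds the pathway's activator in the endoplasmic reticulum, rose from 29.1, 25.9, 23.6 and 16 CPM to 130, 112, 117 and 140 (2.40 ± 0.19). HMGCS1, an early enzyme of the pathway, rose from 54.0 ± 4.63 to 146 ± 5.36 CPM. For MSMO1 and INSIG1 the day 30 level was also above the untreated mean (78.0 and 38.6 CPM), whereas day 4 lay below it. TM7SF2, a sterol reductase, was the 1 that fell, from 15.8, 17.4, 19.9 and 65.6 CPM to 8.02, 9.37, 10.6 and 8.93, by -1.70 on the log2 scale, or -0.94 without that library. The word TCACNCCAC of the sterol regulatory element, on both strands, was in 1 of 18 promoters at hand (5.56%, SREBF2) and in 1.09% of all.

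Fatty acid synthesis had a median nearer 0, with 8 higher and 3 lower (ACACA, ELOVL6 and MID1IP1) of 14 and a median of 0.27, or 0.17 without replicate 4 of S2D4. These were 57.1% and 21.4% of the list, beside 24.4% and 26.9% of all genes. FADS1, a desaturase of long fatty acids, rose from 154, 153, 152 and 157 CPM to 270, 275, 269 and 258 (log2 fold change 0.80 ± 0.07). SCD, which makes monounsaturated fats, rose from 182, 188, 186 and 381 CPM to 403, 370, 355 and 411, with replicate 4 of S2D4 inside the day 30 range. ACACA, the acetyl-CoA carboxylase that commits carbon to the pathway, fell from 82.5 ± 5.21 to 37.0 ± 2.63 CPM.

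Lysosome and autophagy genes rose in 25 of 32 cases and fell in 0, with a median of 0.75, or in 27 with 1 lower without replicate 4 of S2D4. GABARAPL1, which coats autophagosomes, stood at 11.7, 13.6, 13.8 and 13.2 CPM at day 4 and at 97.7, 97.3, 103 and 93.9 at day 30 (log2 fold change 2.91 ± 0.14, adjusted p = 1.78e-10, edgeR). GLB1, the beta-galactosidase whose activity is used to stain senescent cells, rose from 22.8, 22.7, 21.2 and 15.7 CPM to 57.8, 60.3, 62.8 and 50.8 (1.49 ± 0.13). Chosen after its values were seen, NPC1, the exporter of lysosomal cholesterol, rose from 134 ± 13.8 to 612 ± 48.4 CPM. The word TCACGTGA, the core of the element bound by the lysosomal factor TFEB and identical on both strands, was in 5 of 22 promoters (22.7%) and in 1.78% of all. LAMP1, a protein of the lysosomal membrane that rose from 349 to 494 CPM, is printed because it held 2 matches (capitals), from chr13:113296989-113297288 on the plus strand.
LAMP1: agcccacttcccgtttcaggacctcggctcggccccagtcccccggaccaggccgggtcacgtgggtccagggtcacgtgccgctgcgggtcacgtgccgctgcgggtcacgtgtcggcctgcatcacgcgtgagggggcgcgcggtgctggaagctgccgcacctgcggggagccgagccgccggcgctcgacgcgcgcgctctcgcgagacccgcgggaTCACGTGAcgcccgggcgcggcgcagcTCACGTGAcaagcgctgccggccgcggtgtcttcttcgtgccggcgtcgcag

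NRF2 targets and ferritin, which protect against oxidants and store iron, were higher in 13 of 17 cases and lower in 2 (PGD and TKT), with a median of 1.09. SLC7A11, the cystine importer, stood at 9.69, 11.2, 9.17 and 16.5 CPM at day 4 and at 83.6, 60.3, 61.0 and 90.0 at day 30 (log2 fold change 2.66 ± 0.24, adjusted p = 1.22e-07, edgeR). HMOX1, haem oxygenase, rose from 3.28, 2.41, 3.17 and 9.01 CPM to 14.8, 15.4, 14 and 15.3, by 1.71 on the log2 scale, or 2.32 without replicate 4 of S2D4. The ferritin chain FTH1, singled out after its values were seen, rose from 845 ± 140 to 3760 ± 326 CPM. PGD, of the pentose phosphate pathway, fell from 58.6 ± 9.33 to 40.6 ± 3.07 CPM. The word TGACNNNGC of the antioxidant element, on both strands, was in 3 of 13 promoters (23.1%) and in 14.8% of all.

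The unfolded protein and integrated stress list was split, with 12 higher and 8 lower of 28 and a median of 0.062. These were 42.9% and 28.6% of the list, beside 24.4% and 26.9% of all genes. DDIT3, which encodes the stress factor CHOP, stood at 32.2, 34.6, 33.8 and 35.2 CPM at day 4 and at 120, 149, 157 and 116 at day 30 (log2 fold change 2.0 ± 0.14, adjusted p = 1.28e-08, edgeR), with 31.6% of its exon bases overlapped on the other strand. HSPA5, the chaperone BiP, rose from 531 ± 84.8 to 788 ± 60.6 CPM. The amino acid enzymes went the other way: PHGDH of serine synthesis fell from 8.19 ± 1.05 to 1.34 ± 0.741 CPM and ASNS, asparagine synthetase, from 39.4 ± 7.30 to 24.9 ± 1.51 CPM, the latter with 38.7% of its 75-base words found elsewhere. Of 15 tested cytosolic heat shock genes 9 were higher and 0 lower (median 0.33), or 7 and 1 without replicate 4 of S2D4. HSPA6, an inducible chaperone, rose from 1.35, 2.47, 2.20 and 1.00 CPM to 24.1, 16.5, 17.1 and 26.8 (3.61 ± 0.36), with 35% of its 75-base words found elsewhere. HSPA1A rose from 100 ± 21.5 to 376 ± 63.2 CPM, but 69.3% of its 75-base words are shared with other genes, so its reads and those of its near copy are uncertain.

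Readouts near the 2 drugs were mixed. Of 8 tested sodium pump genes 3 were higher (37.5%) and 1 lower (12.5%), with a median of 0.24, or 0.46 without replicate 4 of S2D4. Of all genes 24.4% were higher and 26.9% lower. ATP1B1, a beta subunit of the pump, rose from 22.6 ± 4.54 to 43.3 ± 6.06 CPM. FXYD1, a regulator of the pump, also rose, from 0.273 to 0.934 CPM. Of 7 tested kinases that PP121 is known to block, 4 were lower (57.1%: PDGFRB, PRKDC, ABL1 and MTOR) and 0 higher, with a median of -0.45. PDGFRB, a growth factor receptor, fell from 125, 128, 144 and 273 CPM to 36.9, 42.2, 35.1 and 37.0 (-2.15 ± 0.19).

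FOXO and phosphoinositide 3-kinase feedback genes were also called about as often as all genes, with 7 higher and 4 lower (TXNIP, SESN3, IRS2 and KLF15) of 23 and a median of 0.24. Their shares were 30.4% higher and 17.4% lower, beside 24.4% and 26.9% of all genes. TSC22D3, a FOXO target also known as GILZ, rose from 3.13, 2.86, 3.03 and 4.54 CPM to 20.1, 16.1, 19.6 and 21.6 (log2 fold change 2.50 ± 0.16). IRS2, an insulin receptor substrate, fell from 511 ± 117 to 311 ± 16 CPM, still above the 35.2 CPM of untreated cells. TXNIP, an inhibitor of glucose uptake, fell from 826, 830, 768 and 366 CPM to 235, 317, 319 and 194 (-1.39 ± 0.28). PIK3IP1, an inhibitor of the kinase, was not called, at 1.80 ± 0.192 and 2.13 ± 0.171 CPM.

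Outputs of ERK signalling fell in 9 of 19 cases and rose in 3, with a median of -0.53, or -0.083 without replicate 4 of S2D4, where the count lower was again 9. These were 47.4% and 15.8% of the list, beside 26.9% and 24.4% of all genes. SPRY4, a feedback inhibitor of the pathway, stood at 435, 438, 458 and 841 CPM at day 4 and at 169, 157, 157 and 179 at day 30 (log2 fold change -1.71 ± 0.22). DUSP6, the ERK phosphatase, fell from 897, 940, 904 and 809 CPM to 303, 424, 394 and 245, with 40.5% of its exon bases overlapped on the other strand. EREG, the growth factor epiregulin, rose from 28.9, 23.2, 26.8 and 6.67 CPM to 123, 118, 107 and 116 (2.45 ± 0.30). AREG and IER3 were the other 2 that rose, by 2.05 and 0.55 on the log2 scale. AP-1 and immediate early genes had 2 higher and 5 lower (EGR3, JUN, BATF3, KLF6 and IER2) of 15 and a median of -0.25, or 5 and 4 without that library. Their shares in the main fit were 13.3% higher and 33.3% lower, beside 24.4% and 26.9% of all genes. JUN fell from 466, 460, 445 and 268 CPM to 227, 261, 245 and 196, while FOS rose from 22.6, 25.3, 21.0 and 49.3 CPM to 59.8, 51.7, 55.0 and 59.3. JUNB, the other that rose, went from 428 ± 129 to 822 ± 74.3 CPM. EGR3, an early growth response factor, fell from 44.3 ± 2.09 to 20.9 ± 2.63 CPM.

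The list of YAP and TEAD targets also held regulators, such as YAP1, WWTR1 and TEAD1 themselves, so its counts are not those of targets alone. It showed 4 higher (ANKRD1, LATS2, AJUBA and YAP1) and 5 lower (WWTR1, CRIM1, AMOTL1, AMOTL2 and TEAD1) of 13, with a median of -0.35, or -0.66 without replicate 4 of S2D4. These were 30.8% and 38.5% of the list, beside 24.4% and 26.9% of all genes. ANKRD1 rose from 0.145, 0.392, 0.146 and 0 CPM to 4.85, 5.08, 7.15 and 3.41, close to the untreated mean of 5.44. WWTR1, the coactivator TAZ, fell from 162 ± 40.9 to 49.0 ± 1.22 CPM, and CTGF, a secreted target, was not called at 12.9 ± 6.03 and 10.0 ± 2.57 CPM. Contractile genes were called about as often as all genes, beside 24.4% higher and 26.9% lower: 4 of 14 were higher (CNN2, FLNA, ACTN1 and CALD1) and 3 lower (LMOD1, TPM2 and MYH11), with a median of 0.014, or 1 lower without replicate 4 of S2D4. CNN2, a calponin, rose from 20.3 ± 1.11 to 38.8 ± 1.46 CPM and TPM2, a tropomyosin, fell from 35.5 ± 3.16 to 19.3 ± 2.18 CPM. ACTA2 and TAGLN, which mark contractile myofibroblasts, were not called, at 1.06 ± 0.363 and 0.49 ± 0.122 CPM for ACTA2 and 5.34 ± 1.48 and 4.71 ± 0.152 for TAGLN.

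Of 21 p53 targets 5 were higher (PHLDA3, TP53INP1, RRM2B, TNFRSF10B and CCNG1) and 4 lower (PLK2, GADD45A, AEN and TIGAR), with a median of 0.22. Their shares, 23.8% and 19.0%, lay below the 24.4% and 26.9% of all genes. PLK2, a kinase of the centrosome cycle, fell from 39.8, 45.3, 39.0 and 96.7 CPM to 6.70, 7.78, 6.82 and 5.79 (log2 fold change -3.03 ± 0.26). PHLDA3, an inhibitor of AKT, rose from 3.41 ± 1.10 to 9.73 ± 1.53 CPM. MDM2, the ubiquitin ligase of p53, was not called at 43.7 ± 4.51 and 51.0 ± 4.63 CPM. The BCL2 family, which sets the threshold of apoptosis, had 6 members higher and 4 lower (PMAIP1, BID, BAK1 and BCL2L1) of 15, with a median of 0.070. These were 40% and 26.7% of the list, beside 24.4% and 26.9% of all genes. BCL2A1, a protective member that NF-kappa-B induces, rose from 1.54, 1.40, 1.66 and 0.334 CPM to 6.25, 8.89, 9.43 and 5.07 (2.61 ± 0.41). PMAIP1, the pro-death protein NOXA, fell from 102, 107, 95 and 75.6 CPM to 33.7, 28.5, 31.7 and 32.5 (-1.59 ± 0.12). BCL2 itself was not called, at 14.6 ± 3.56 and 14.3 ± 2.60 CPM.

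The medians of the metabolic lists lay near 0, with members called in both directions in all but the mitochondrial-encoded list. Glycolysis and hypoxia genes were evenly split, with 10 higher and 10 lower of 27 (each 37.0%, median -0.060), beside 24.4% and 26.9% of all genes. ALDOC, a brain aldolase, rose from 5.00 ± 0.752 to 29.1 ± 2.69 CPM. LDHA, lactate dehydrogenase, fell from 344 ± 70.0 to 210 ± 18.1 CPM, and PFKFB3, which drives glycolytic flux, from 218 ± 51.7 to 94.7 ± 1.90 CPM. Nuclear-encoded respiratory chain genes had 6 higher and 6 lower of 33 (each 18.2%, median 0.0046), below the shares of all genes. UQCRB of complex III rose from 42.9 ± 5.20 to 67.7 ± 8.05 CPM and ATP5G1 of the ATP synthase fell from 66.9 ± 6.51 to 49.5 ± 7.64 CPM. Of the 13 mitochondrial-encoded genes 3 were lower (23.1%: MT-CO2, MT-CO3 and MT-ND4L) and 0 higher (median -0.12), or 1 lower without replicate 4 of S2D4. With GC and length trends removed their median was -0.51. MT-CO2, a cytochrome oxidase subunit, stood at 5174, 5030, 4858 and 5779 CPM and then at 2401, 3575, 3756 and 2104, so the paired day 30 libraries 1 and 4 lay below 2 and 3. Cytosolic ribosomal proteins mostly rose where called. Among 76 of them 29 were higher (38.2%) and 3 lower (3.95%: RPS24, RPS26 and RPL34), beside 24.4% and 26.9% of all genes. Their median was 0.21, with a range of -0.56 to 0.74. RPS6 rose from 263 ± 29.2 to 439 ± 39.0 CPM, while RPS24 fell from 334 ± 16.6 to 226 ± 28.7 CPM.

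The largest single rises, among genes with at least 10 CPM in the higher group, were led by genes close to undetected at day 4. Such genes could pass the filter on low counts through their day 30 level, and then only rise. CCL3L1, a near copy of CCL3, had 2 counts in all 4 day 4 libraries together and 11.6, 13.3, 14.8 and 8.98 CPM at day 30, a ratio of 539 with a 95% counting interval of 149 to 4453. CCL3L3, another copy, rose from 0.127 ± 0.131 to 51.7 ± 9.40 CPM, and reads of these copies may be split among them. SPINK1, a secreted inhibitor of trypsin, rose from 0.0482, 0.0561, 0 and 0.0667 CPM to 18.3, 19.1, 25.2 and 17.5 (log2 fold change 8.64 ± 0.43). PNLIPRP3, a lipase-related protein, rose from 0.101 ± 0.080 to 24.4 ± 2.96 CPM. KEL, the Kell blood group peptidase, rose from 0.0729 ± 0.0933 to 11.3 ± 2.16 CPM, and KLHL38, of the kelch-like family, from 0.143 ± 0.117 to 20.6 ± 1.86 CPM. A pair of interleukin-36 family genes was among them: the ligand IL36B rose from 0.145 ± 0.172 to 17.7 ± 1.68 CPM and the antagonist IL36RN from 0.0868 ± 0.0716 to 11.5 ± 1.71 CPM. RCSD1, which encodes an actin-capping regulator, was the one with the highest day 30 level, from 3.09, 3.92, 2.34 and 0.334 CPM to 332, 297, 309 and 312 (7.08 ± 0.40, adjusted p = 7.91e-10, edgeR).

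The largest falls were RP11-466H18.1, DLK1, MKI67, LCN1, NPPC, CHGA, MYBL2, TOP2A, EDN3 and VEGFD. RP11-466H18.1 is known only by its clone-based name, and its coordinates are not given here. It stood at 61.3, 60.7, 15.4 and 35.9 CPM at day 4 and had 0 counts in all 4 day 30 libraries, at least 304-fold lower when each is set to 3 counts. DLK1, a ligand-like protein of chromaffin and progenitor cells, fell from 19.9, 21.6, 22.2 and 24.7 CPM to 0.181, 0.159, 0.0467 and 0.0898 (log2 fold change -7.48 ± 0.80). LCN1, tear lipocalin, fell from 81.4, 95.8, 95.1 and 220 CPM to 1.09, 1.75, 0.747 and 0.629, after 1.28 CPM in untreated cells, so only day 4 lay far above that level of these 3. NPPC, C-type natriuretic peptide, fell from 7.38, 8.52, 9.47 and 38 CPM to 0.0906, 0.265, 0.234 and 0.359, by -6.05 on the log2 scale, or -5.13 without replicate 4 of S2D4. EDN3, endothelin 3 of the neural crest, fell from 35.7 ± 2.11 to 0.74 ± 0.416 CPM. VEGFD, a growth factor for lymphatic vessels, fell from 156, 160, 159 and 82.6 CPM to 2.22, 3.33, 3.5 and 3.05 (-5.52 ± 0.31).

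The level of each list in each library, taken as the median over members of log2 CPM minus the untreated mean, places the 2 times beside the earlier groups. A small constant was added to CPM before the log. For genes near 0 CPM the differences in level are therefore smaller than the log2 fold changes above. The level is also a median taken within each library, so it can differ from the median fold change in size or direction. The AP-1 list stood at 2.98 ± 0.15 at day 4 and 3.14 ± 0.048 at day 30, with a median fold change of -0.25. Sodium pump genes stood at 0.35 ± 0.18 and 0.093 ± 0.17, with a median fold change of 0.24. The groups share the untreated libraries as their reference and are given side by side only. The mitosis list stood at -1.75 ± 0.53 in S1D4, -2.82 ± 0.25 at day 4 and -5.56 ± 0.077 at day 30. The DNA replication list stood at -1.24 ± 0.23, -1.32 ± 0.15 and -2.51 ± 0.027. The adrenergic list stood at -0.0018 ± 0.21, -1.11 ± 0.53 and -2.08 ± 0.15, and the neuronal cytoskeleton list at 0.036 ± 0.099, -0.37 ± 0.11 and -1.51 ± 0.13. Replicate 4 of S2D4 was the highest day 4 library in both. Cholesterol synthesis stood at -0.67 ± 0.19, -0.75 ± 0.12 and 0.46 ± 0.032, so it lay below the untreated level at day 4 and above it at day 30. NRF2 targets likewise went from -0.31 ± 0.13 and -0.47 ± 0.14 to 0.70 ± 0.083. Lysosomal genes stood at 0.34 ± 0.038, 0.78 ± 0.28 and 1.95 ± 0.016, and chemokines at 0.61 ± 0.30, 1.03 ± 0.49 and 3.14 ± 0.31. In these 8 lists no day 30 library overlapped a day 4 library. They are 8 of the 35 lists, picked for display, and 50.3% of all single genes did not overlap either. Separation was not particular to them. Interleukins stood at 0.97 to 1.24 at day 4 and 2.20 to 2.49 at day 30. The NF-kappa-B list stood at 0.80 to 1.20 and 2.05 to 2.17, and matrix genes at -1.02 to -0.56 and -1.51 to -1.22. Some other lists did overlap, such as AP-1 and immediate early genes, at 2.80 to 3.13 at day 4 and 3.09 to 3.19 at day 30.

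**Figure D5:**
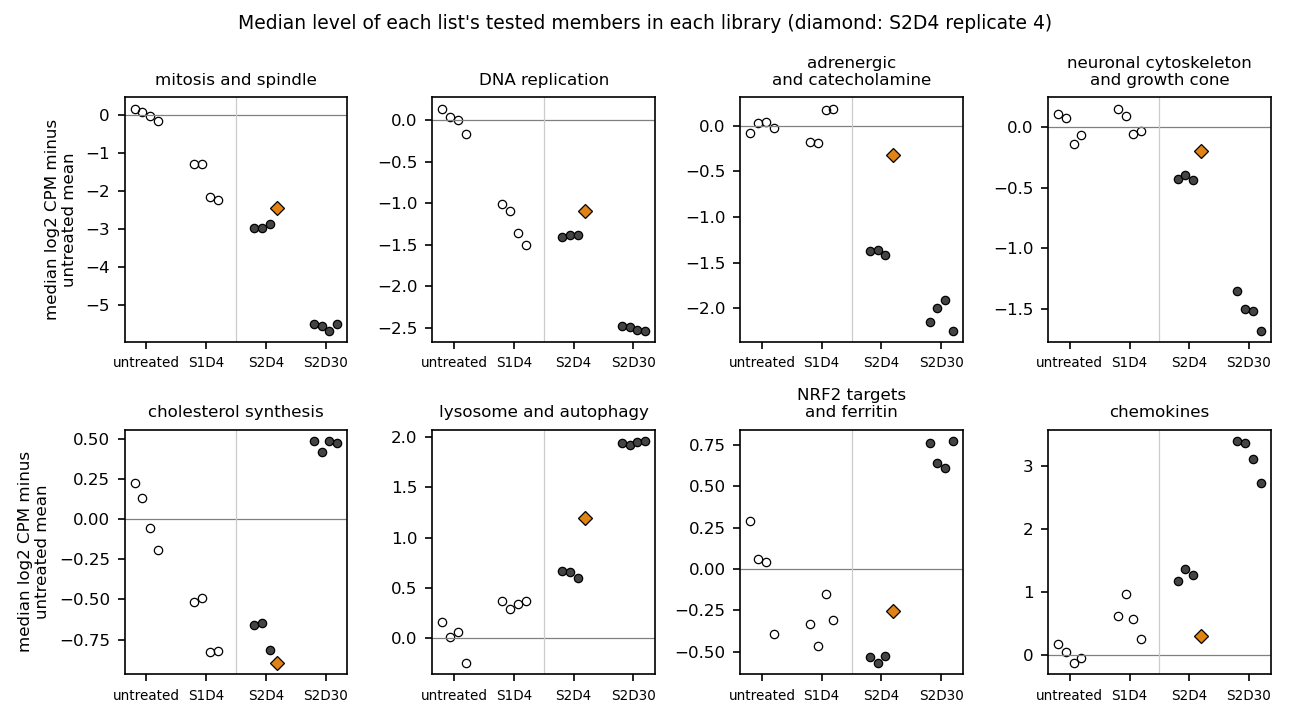
Median over the tested members of 8 lists of log2 CPM minus the untreated mean (y axis) in each of the 16 SK-N-AS libraries by group (x axis), with stage 2 libraries filled and replicate 4 of S2D4 as an orange diamond. A small constant was added to CPM before the log. The day 30 libraries lie farthest from 0 for mitosis (-5.56 on average) and above 0 for cholesterol synthesis, lysosome, NRF2 and chemokines.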

How the data were processed

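RNA of 22 libraries was sequenced as paired ends on an Illumina HiSeq X, per the labels' protocols. The authors deposited 1 table of raw counts for 35237 genes named by symbol. The values were whole numbers with unequal totals. The aligner, counter, genome build, annotation and use of strand are not given in the sources used here. Groups came from the labels. The members and gene lists were chosen with earlier results of these data known.

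The counts were fitted in R 4.3.3 with edgeR 4.0.16 (filterByExpr with a minimum count of 10 and total of 15, TMM scaling, glmQLFit and glmQLFTest, Benjamini-Hochberg adjustment over 15810 genes) on all 16 SK-N-AS libraries, without a replicate block, at an adjusted p of 0.05. SE was derived from edgeR's F statistic and the log2 fold change before its shrinkage toward 0. The printed log2 fold changes are those after shrinkage, which matters most for genes near 0 counts. SD is that of CPM. The script was tested on simulated data. The text names the 10 largest rises and falls among called genes with at least 10 CPM and no overlap between groups, 56 genes fixed in the lists, and in each list the called member with the largest rise and fall at 5 CPM or more, which gave 128 genes, some of which are not reported here. Other names are marked as chosen after their values were seen or complete a small count.

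A group at 0 was bounded with 3 counts per library, and the interval of 95% is an exact binomial one. Both cover counting error only, since reads carried no molecular identifiers. In these 8 libraries 3 counts were at most 0.168 CPM. Overlap and shared 75-base words were computed on GENCODE 29, which may not be the authors' annotation, for 125 of the 128 genes. Promoters are those of RefSeq. Alternatives were other scalings, DESeq2 1.42.0, limma 3.58.1 with voom and sample weights, other filters, only the 8 libraries, a replicate block, an added fold threshold, each library left out and, added after seeing the data, removal of GC and length trends.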

Additional observations from a re-analysis of the deposited data

Results flagged for a closer look

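The 121 named genes reported here were examined in both stage 2 groups for 1 library far from the other 3, by Dixon's test. Of 242 groups of 4 libraries 47 passed, where chance gives about 1 in 20 (12.1 here). Of these, 44 were in S2D4 and 43 were replicate 4 of S2D4. The values that follow are the CPM of that library, with the range of the other 3 in brackets.

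That library was the highest of the group in 30 genes. Among identity and secretory genes it held, in CPM, CHGA 4048 (500 to 605), TH 25.8 (0.729 to 1.25), GATA3 103 (36.6 to 38.9), TUBB3 184 (156 to 160), NPPC 38 (7.38 to 9.47), LCN1 220 (81.4 to 95.8). Among cell cycle genes it held, in CPM, E2F2 13.5 (7.42 to 8.35), MCM10 20.7 (10.5 to 12.0), MCM2 152 (100 to 108), MYBL2 36.1 (14.2 to 16.8), RRM2 31.9 (11 to 12.6), TOP2A 37.5 (29.8 to 30.6), PLK2 96.7 (39.0 to 45.3). Among signalling and stress genes it held, in CPM, FOS 49.3 (21.0 to 25.3), JUNB 620 (340 to 376), SPRY4 841 (435 to 458), IRS2 686 (449 to 457), PDGFRB 273 (125 to 144), NFKBIA 97.2 (45.6 to 50.9), TSC22D3 4.54 (2.86 to 3.13), HSPA1A 132 (88.0 to 92.3), BCL2 19.9 (12.4 to 13.4). Among genes of antigen presentation, metabolism and matrix it held, in CPM, B2M 669 (390 to 403), HLA-B 31.2 (7.76 to 11.3), HMOX1 9.01 (2.41 to 3.28), IRF7 75.4 (26.0 to 27.4), LUM 56.5 (24.5 to 25.6), PFKFB3 295 (182 to 199), SCD 381 (182 to 188), TM7SF2 65.6 (15.8 to 19.9). 

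In 13 genes it was the lowest. Among secreted proteins it held, in CPM, CCL20 5.67 (25.3 to 26.2), CCL3 0.00 (1.25 to 1.35), IL24 8.81 (61.6 to 67.6), MMP1 60.7 (1605 to 1774), CFI 111 (169 to 176), VEGFD 82.6 (156 to 160). Among the remaining genes it held, in CPM, GAP43 11.6 (80.7 to 90.4), HSPA5 404 (571 to 577), JUN 268 (445 to 466), PRRX1 117 (235 to 245), TWIST2 105 (153 to 158), TXNIP 366 (768 to 830), WWTR1 102 (176 to 188). 

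The other 4 cases were single genes. IFIT1 was lowest in replicate 2 of S2D4, at 0.449 CPM against 0.967 to 1.06. MDM2 was highest in replicate 4 of S2D30, at 57.9 CPM against 47.8 to 49.5. PNLIPRP3 was highest in replicate 3 of S2D30, at 28.9 CPM against 22.9 to 23.0. TAGLN was highest in replicate 1 of S2D30, at 4.94 CPM against 4.62 to 4.66.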

How the results depend on the processing

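The counts of genes higher and lower at day 30 moved by less than 1.5 times under each alternative but an added fold threshold. With a log2 fold change of at least 1 they were 1603 and 1506. Other scalings gave 3922 to 4320 higher and 3823 to 4161 lower, and upper-quartile factors raised the share higher among called genes from 47.6% to 53.1%. DESeq2 called 4299 higher and 4143 lower, and voom with sample weights 5261 and 5330. Leaving out each library gave 3482 to 4268 higher and 3829 to 4376 lower. Of 128 named genes 115 kept direction and call under all 18 alternatives. Of all genes called, 4 changed sign with voom and 4 without replicate 4 of S2D4. Among named genes direction changed for 3 that were not called: BCL2 (-0.039) was 0.029 with upper-quartile factors, 0.065 with voom, 0.15 without replicate 4 of S2D4 and 0.040 and 0.027 without replicates 1 and 4 of S2D30, with a lowest value of -0.135 over the left-out libraries; SNAP25 was -0.11 with voom, -0.095 without replicate 4 of S2D4 and -0.044 without replicate 3 of S2D30; TAGLN (-0.177) was 0.026 without replicate 3 of S2D4, with a lowest value of -0.290. The cause was not tested. Calls were lost for ATP5G1 (3 leave-one-out fits), MMP14 (without replicates 1 or 4 of S2D30), GATA3 (adjusted p = 0.0537 in the edgeR fit of only the 8 libraries) and TH (adjusted p = 0.0947 with limma's voom). Calls were gained for ACTA2, CTGF, IFIT1, IL24 and MDM2, among others.

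The same replicate numbers in both groups gave no sign of pairing: deviations of same-numbered libraries correlated at -0.036 to 0.065. A replicate block gave 3925 higher and 4237 lower.

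Depth limits genes near 3 counts per library, at most 0.168 CPM.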
